A study of Mus musculus with 12 samples.

Results

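The genes of MHC class I antigen presentation were followed in primary mouse embryonic fibroblasts (MEFs). The set was listed by mouse gene symbol and holds 10 genes: H2-K1, H2-D1, B2m, Tap1, Tap2, Tapbp, Psmb8, Psmb9, Psmb10 and Nlrc5. The symbols were matched through Ensembl identifiers, and 9 of the 10 genes had a row among the 37991 gene identifiers of the count files, of which 32919 could be given a symbol. Psmb9 was not analysed here. All 9 passed the filter on low counts.

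Polyadenylated RNA was sequenced from FVB MEFs that were wild-type or homozygous for the E2f1 3KR allele, in which the 3 lysines of E2F1 that become acetylated are replaced by arginines. Cells of each genotype were untreated or received neocarzinostatin (NCS), a radiomimetic drug that breaks DNA, at 250 ng/ml for 3 h, and each of the 4 groups had 3 samples. All cultures came from embryos at day 13.5 of gestation and were used at passage 3. The 3KR line was bred from a founder made with a zinc finger nuclease, so its linked background cannot be told apart from the allele. The study describes its graphs as averages of independent experiments on cells or mice, and the sample labels do not say which samples came from separate embryos. The p-values thus measure the spread between these samples, part of which may be technical.

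MHC class I molecules show peptides from inside the cell to CD8 T cells. A heavy chain (H2-K1 or H2-D1 for the classical molecules of the mouse) pairs with beta-2-microglobulin, the product of B2m. The proteasome cuts proteins into peptides, and in cells exposed to interferon the subunits Psmb8, Psmb9 and Psmb10 replace the constitutive catalytic subunits Psmb5, Psmb6 and Psmb7 to form the immunoproteasome. Tap1 and Tap2 form the pump that carries peptides into the endoplasmic reticulum, where tapasin (Tapbp) holds the empty class I molecule beside the pump. Nlrc5 is a transcriptional coactivator of the class I genes. Fibroblasts hold this pathway at a low level that interferons raise.

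The libraries held from 33203757 to 45279321 counted reads each, and 15327 genes were tested. Levels are normalized counts, which are counts divided by a size factor for the depth of each library. The quasi-likelihood test of edgeR was used for differences, and its p-values adjusted over all tested genes are given as the false discovery rate (FDR), with calls made under 0.05. In both treatments, wild-type replicate 3 stood apart from its fellows: its chi-square per gene against them was 7.34 to 9.14, while no other pair of replicates exceeded 2.29. Values without these 2 libraries are therefore given wherever they alter a call, a choice made after seeing the data. E2f1 mRNA had 1146 ± 133 normalized counts in untreated wild-type cells against 1121 ± 9.3 in untreated 3KR cells (SD, n = 3 each), but a change of 3 codons is not visible in gene counts, so these levels do not check the labels. Xist, the RNA that coats the silenced X of female cells, lay between 32.3 and 62.5 normalized counts in all 6 wild-type libraries but between 30590 and 35635 in all 6 3KR libraries, while Ddx3y of the Y chromosome lay between 5370 and 5822 in the former and did not exceed 16.2 in the latter. Genotype and sex of the embryos cannot be told apart here, and this holds for every comparison of 3KR with wild-type that follows.

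Of the measured genes, 6 lie in the H2 complex of chromosome 17. On GRCm38 (GENCODE M21), Tapbp spans chr17:33915899-33929292, H2-K1 chr17:33996017-34000347 on the minus strand, Tap1 chr17:34187553-34197225, Psmb8 chr17:34197721-34201454, Tap2 chr17:34203527-34216321 and H2-D1 chr17:35262730-35267499. B2m is on chromosome 2 (chr2:122147686-122153083). Nlrc5 (chr8:94434356-94527272) and Psmb10 (chr8:105935735-105938444, minus strand) are on chromosome 8. The submitters' processing notes name the earlier build mm9, so these positions describe the genes and not the counted intervals.

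The promoters of 5 members are shown because they are the measured members whose windows held one of the motifs searched. RefSeq held a window of 250 bases before to 50 bases after the start for 8 of the 10 genes, with none for Tap2 or Nlrc5. The sequences are RefSeq's on GRCm38.p6, read 5′ to 3′ on the strand of the gene, and not those of FVB mice. Capitals mark matches to 5 motifs searched on both strands: 2 forms of the kappaB site (GGGANNCCCC and GGGANNTTCC), an interferon-stimulated response element core (GAAANNGAAA), an interferon-gamma-activated site (TTCNNNGAA) and an E2F site (TTTNGCGC).
H2-K1 promoter, chr17:34000298-34000597, minus strand: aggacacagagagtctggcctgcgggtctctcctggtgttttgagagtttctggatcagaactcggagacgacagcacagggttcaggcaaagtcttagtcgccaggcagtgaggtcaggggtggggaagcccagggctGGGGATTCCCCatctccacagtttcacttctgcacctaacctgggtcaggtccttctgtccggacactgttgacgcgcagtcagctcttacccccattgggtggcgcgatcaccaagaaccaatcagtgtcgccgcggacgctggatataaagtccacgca
H2-D1 promoter, chr17:35262844-35263143, plus strand: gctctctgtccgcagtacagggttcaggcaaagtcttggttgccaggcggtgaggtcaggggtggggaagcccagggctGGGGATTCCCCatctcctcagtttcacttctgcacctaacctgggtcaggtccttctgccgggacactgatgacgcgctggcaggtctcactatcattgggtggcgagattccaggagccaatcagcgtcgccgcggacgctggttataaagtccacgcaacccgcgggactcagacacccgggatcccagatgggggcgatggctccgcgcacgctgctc
B2m promoter, chr2:122147437-122147736, plus strand: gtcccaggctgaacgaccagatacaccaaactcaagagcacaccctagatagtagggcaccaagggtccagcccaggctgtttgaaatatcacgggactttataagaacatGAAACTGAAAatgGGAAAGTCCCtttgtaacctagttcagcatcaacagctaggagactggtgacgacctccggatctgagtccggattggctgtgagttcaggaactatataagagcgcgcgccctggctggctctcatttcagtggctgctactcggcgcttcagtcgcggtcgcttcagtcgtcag
Tap1 promoter, chr17:34187306-34187605, plus strand: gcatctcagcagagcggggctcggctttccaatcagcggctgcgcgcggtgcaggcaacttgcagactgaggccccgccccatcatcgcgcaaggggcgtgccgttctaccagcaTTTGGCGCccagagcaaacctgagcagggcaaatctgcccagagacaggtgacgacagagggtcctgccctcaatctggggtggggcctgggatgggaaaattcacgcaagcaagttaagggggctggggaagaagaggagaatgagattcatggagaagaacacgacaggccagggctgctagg
Psmb8 promoter, chr17:34197945-34198244, plus strand: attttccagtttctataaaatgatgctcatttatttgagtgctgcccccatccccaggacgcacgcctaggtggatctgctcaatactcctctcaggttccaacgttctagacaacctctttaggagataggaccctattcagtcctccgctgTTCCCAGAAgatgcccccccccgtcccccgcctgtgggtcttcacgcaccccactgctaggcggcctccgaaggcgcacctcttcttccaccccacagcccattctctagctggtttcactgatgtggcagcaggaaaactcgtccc

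The H2-K1 and H2-D1 windows carried the same kappaB match, GGGANNCCCC, which read on both strands with an overlap. It lay at -111 to -101 in H2-K1 and -171 to -161 in H2-D1, counted from the start site, and 1.67% of 32851 promoters of that length hold this motif. B2m had the other kappaB form, GGGANNTTCC, at -126 to -117 (1.47% of promoters). It also had the response element core GAAANNGAAA at -139 to -130 (3.44% of promoters). Psmb8 had a TTCNNNGAA match at -97 to -89, a motif in 8.3% of promoters. In the Tap1 window the E2F motif TTTNGCGC, found in 1.38% of promoters, lay at -135 to -128. Tap1 and Psmb9 are transcribed in opposite directions, their windows share 275 bases, and the E2F match is in the shared stretch. The windows of Tapbp and Psmb10 held none of these 5 motifs. In any of the windows, a motif without a match means only that these letters were absent, as looser forms were not searched. Shorter motifs of the class I promoter were frequent everywhere: TGACG was in 5 of the 8 windows (20.8% of all promoters) and CCAAT in 6 (37.4%).

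Without treatment, 7 of the 9 measured members were higher in 3KR than in wild-type MEFs at an edgeR FDR under 0.05, and 0 were lower. Nlrc5, Psmb8 and H2-K1 had the largest log2 fold changes, at 1.27, 0.93 and 0.59. Tap2 followed at 0.47, Tap1 at 0.43, Tapbp at 0.27 and H2-D1 at 0.22. B2m, at 0.07 (FDR = 0.0704), and Psmb10, at 0.14 (FDR = 0.152), did not pass. The median of the 9 was 0.43, against -0.00 for all tested genes. Among all 15327 genes tested, 22.1% were called higher and 23.6% lower in this comparison. The samples of the genotypes did not overlap for 8 of 9 members, all higher in 3KR, while 27% of tested genes had groups that did not overlap with 3KR higher.

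**Figure D1:**
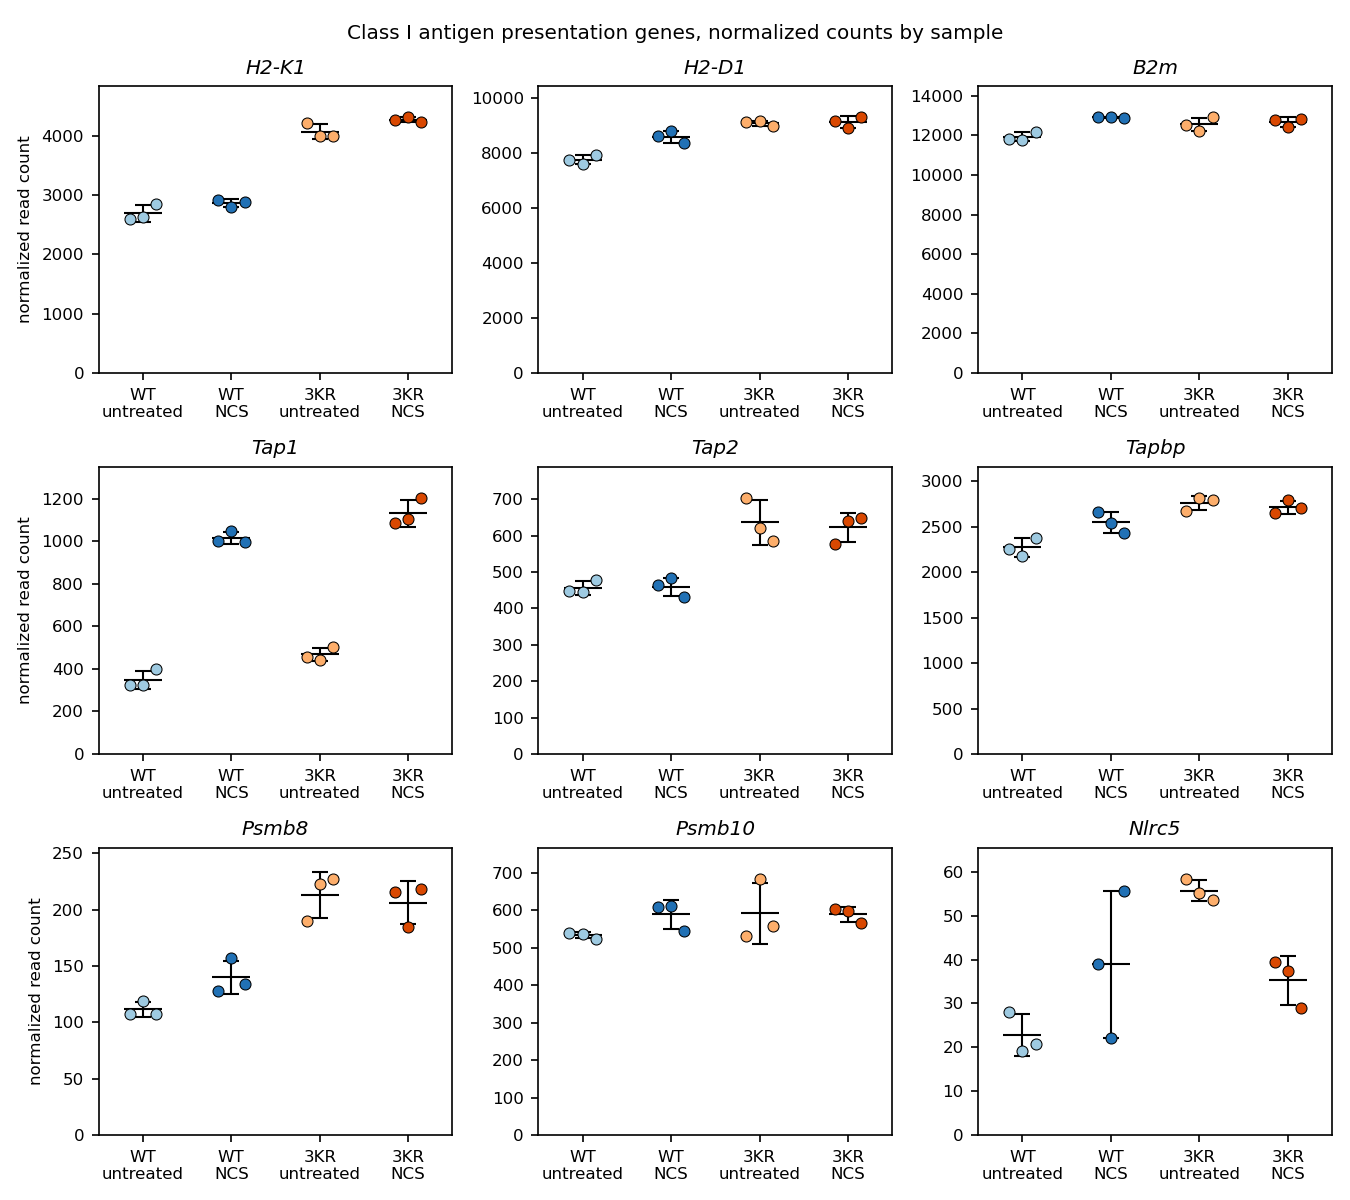
Normalized read counts (y axes, from 0) of the 9 measured members in each of the 12 samples. Points are samples, coloured by group, and bars give the mean ± SD of 3 samples. H2-K1, Tap2 and Psmb8 are higher in both 3KR groups, Tap1 is raised by NCS in both genotypes, and Nlrc5 is highest in untreated 3KR MEFs.

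The heavy chain H2-K1 had 2601, 2630 and 2852 normalized counts in untreated wild-type MEFs and 4217, 4001 and 4002 in untreated 3KR MEFs. After NCS it had 2926, 2803 and 2878 in wild-type and 4267, 4324 and 4231 in 3KR MEFs. Every 3KR sample was above every wild-type sample. The untreated difference was 1.51-fold (log2 fold change 0.59, standard error 0.04, edgeR FDR = 6.15e-12), and after NCS it was 1.49-fold (0.58, standard error 0.04, edgeR FDR = 1.21e-11). NCS moved H2-K1 little. Its log2 fold change was 0.09 in wild-type MEFs (edgeR FDR = 0.103) and 0.07 in 3KR MEFs (edgeR FDR = 0.162). The wild-type value passed at 0.13 without untreated wild-type replicate 3 (edgeR FDR = 0.00729), at 0.13 without both wild-type libraries numbered 3 (edgeR FDR = 0.00341) and at 0.09 in the fit blocked by replicate number (edgeR FDR = 0.0311). The 3KR value passed with only the 6 3KR samples in the fit (0.07, edgeR FDR = 0.0320).

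H2-D1, the other classical heavy chain, had 7741, 7619 and 7942 normalized counts in untreated wild-type MEFs and 8623, 8805 and 8355 after NCS. In 3KR MEFs it had 9128, 9168 and 8996 without treatment and 9161, 8908 and 9327 after NCS. The 3 untreated wild-type samples were below all others. The genotypes differed by 1.17-fold without treatment (log2 fold change 0.22, standard error 0.03, edgeR FDR = 3.80e-06). In wild-type MEFs, NCS raised H2-D1 by 10.4% (log2 fold change 0.14, standard error 0.03, edgeR FDR = 0.00171). In 3KR MEFs the change was 0.01, with a 95% interval of -0.06 to 0.07. After NCS the genotypes were 0.09 apart (edgeR FDR = 0.0285). That call was lost without NCS-treated wild-type replicate 1 (0.09, FDR = 0.0527) or 3 (0.07, FDR = 0.0739) and without NCS-treated 3KR replicate 1 (0.09, FDR = 0.0779) or 3 (0.07, FDR = 0.129).

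The 2 heavy chains did not keep their proportions. Over 18 class I heavy chain genes, H2-K1 made up 22.9% ± 0.58 of the counts in untreated wild-type MEFs and 27.2% ± 0.68 in untreated 3KR MEFs (SD, n = 3 each). After NCS its share was 22.4% ± 0.77 and 28.3% ± 0.50 (SD, n = 3 each). The share of H2-D1 was 66.1% and 67.0% in the wild-type groups and 60.6% and 60.4% in the 3KR groups. Summed into 1 count, the 18 genes were higher in 3KR by 0.35 on the log2 scale without treatment (edgeR FDR = 9.27e-10) and by 0.24 after NCS (edgeR FDR = 5.43e-07).

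Sequence sharing limits how exactly heavy chain reads can be placed. Of the 50-base words in the annotated transcripts of H2-K1, 9.63% also occur in other genes of the GRCm38 annotation, and for H2-D1 12.8% do. FVB mice carry the H-2q haplotype while the reference genome carries H-2b, so reads from these polymorphic genes may align incompletely in both genotypes. Whether this differs between H2-K1 and H2-D1 was not tested.

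B2m, the light chain shared by all class I molecules, had the narrowest spread. Its normalized counts were 11819, 11793 and 12194 in untreated wild-type MEFs and 12916, 12945 and 12862 after NCS. In 3KR MEFs they were 12514, 12243 and 12911 without treatment and 12777, 12405 and 12846 after NCS. The 3 untreated wild-type samples were the lowest of the 12, and the NCS-treated wild-type samples overlapped neither them nor the NCS-treated 3KR samples. NCS raised B2m in wild-type MEFs by 7.86% (log2 fold change 0.11, standard error 0.03, edgeR FDR = 0.00823). With only the 6 wild-type samples in the fit, that call was lost (0.09, FDR = 0.0622). The untreated difference between genotypes of 0.07 had a 95% interval of 0.01 to 0.13. It passed without untreated wild-type replicate 3 (0.08, FDR = 0.0147), without untreated 3KR replicate 2 (0.09, FDR = 0.0484) and without both wild-type libraries numbered 3 (0.09, FDR = 1.85e-04), and also in the Wald test of DESeq2 (0.07, FDR = 0.0332) and in edgeR with the DESeq2 size factors (0.07, FDR = 0.0469). After NCS the 3KR samples were 1.79% below wild-type (log2 fold change -0.03, edgeR FDR = 0.509).

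Tap1 was the member that responded most to NCS. The peptide pump subunit had 325, 323 and 398 normalized counts in untreated wild-type MEFs and 1004, 1046 and 996 after NCS. In 3KR MEFs it had 457, 443 and 505 without treatment and 1088, 1103 and 1205 after NCS. No treated sample overlapped an untreated one in either genotype. The rise was 2.91-fold in wild-type MEFs (log2 fold change 1.54, standard error 0.07, edgeR FDR = 2.46e-13) and 2.42-fold in 3KR MEFs (1.27, standard error 0.07, edgeR FDR = 2.83e-12). Both calls held in every alternative that was run. Exons of Tap1 share 212 bases, 3.87% of their length, with Psmb9 on the opposite strand.

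Between genotypes, Tap1 was 1.34-fold higher in untreated 3KR MEFs (log2 fold change 0.43, standard error 0.08, edgeR FDR = 1.25e-04). After NCS the difference was 0.16 with a 95% interval of 0.03 to 0.29 (edgeR FDR = 0.0555). It passed with no filter on low counts (FDR = 0.0337), with at least 10 counts in every sample (FDR = 0.0406), with only the 6 samples compared (FDR = 0.0206), in the fit blocked by replicate number (0.15, FDR = 0.0375) and without both wild-type libraries numbered 3 (0.15, FDR = 0.0374). The response of 3KR MEFs was smaller by 0.27 on the log2 scale, which did not pass (edgeR FDR = 0.177). It passed at -0.37 without untreated wild-type replicate 3 (edgeR FDR = 0.0157) and at -0.39 without both wild-type libraries numbered 3 (edgeR FDR = 0.00433).

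Tap2, the partner of Tap1 in the pump, had another pattern. Its normalized counts were 448, 444 and 479 in untreated wild-type MEFs and 463, 483 and 433 after NCS. They were 704, 621 and 586 in untreated and 578, 641 and 649 in NCS-treated 3KR MEFs. All 3KR samples were above all wild-type samples, and treated and untreated samples overlapped in both genotypes. 3KR was higher by 1.39-fold without treatment (log2 fold change 0.47, standard error 0.07, edgeR FDR = 1.36e-05) and by 1.35-fold after NCS (0.44, standard error 0.08, edgeR FDR = 4.62e-05). The NCS change was 0.01 in wild-type MEFs, with a 95% interval of -0.15 to 0.16, and -0.03 in 3KR MEFs, with an interval of -0.17 to 0.11. Exons of Tap2 overlap 2 antisense genes, but these held 50 and 4 counts over all 12 samples.

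Tapasin mRNA (Tapbp) had 2258, 2177 and 2380 normalized counts in untreated wild-type MEFs and 2666, 2542 and 2429 after NCS. In 3KR MEFs it had 2670, 2817 and 2788 without treatment and 2647, 2791 and 2701 after NCS. As for H2-D1, the 3 untreated wild-type samples were below all others. Tapbp was 1.21-fold higher in untreated 3KR MEFs (log2 fold change 0.27, standard error 0.04, edgeR FDR = 1.21e-05). NCS raised it by 0.16 in wild-type MEFs (edgeR FDR = 0.00724), a call lost without untreated wild-type replicate 2 (0.13, FDR = 0.0520) or NCS-treated wild-type replicate 1 (0.12, FDR = 0.0597). In 3KR MEFs the change was -0.02 (95% interval -0.11 to 0.06). After NCS the genotypes were 0.09 apart (edgeR FDR = 0.0876), or 0.13 without NCS-treated wild-type replicate 1 (FDR = 0.0315). Tapbp shares 149 exon bases with Zbtb22 on the same strand, 4.11% of its merged exons. It shares 904 more, 24.9%, with an antisense gene that had no row among the counts.

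**Figure D2:**
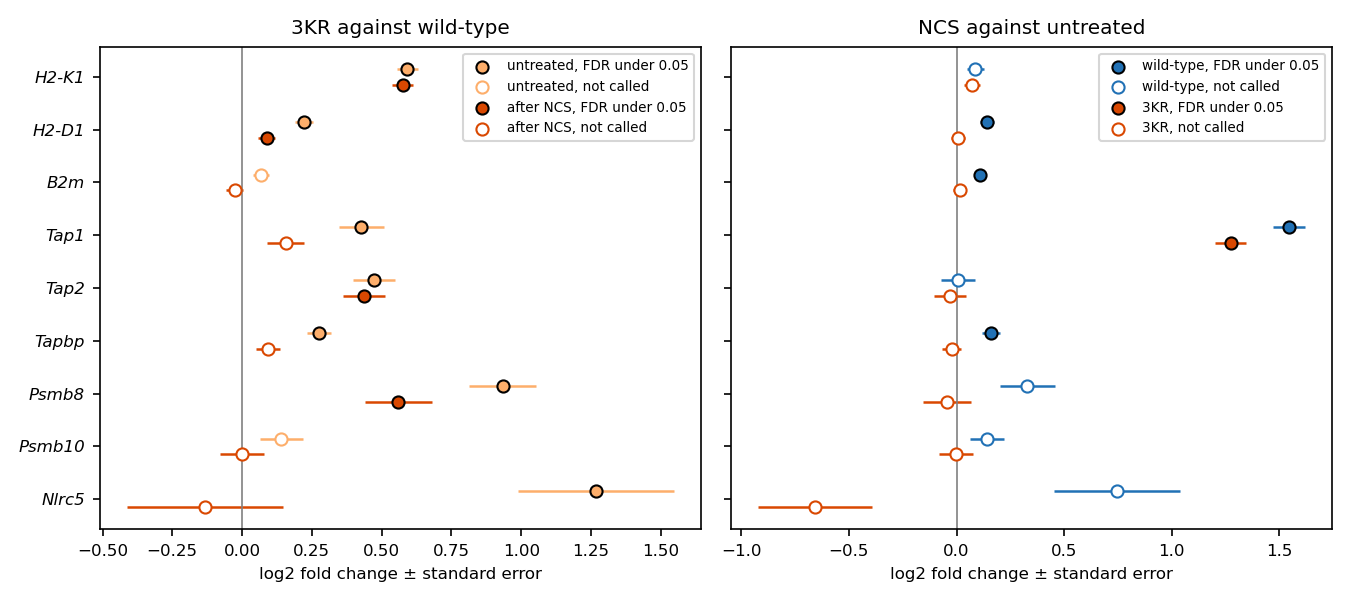
Log2 fold changes (x axes) of the 9 members for 3KR against wild-type MEFs (left, untreated and after NCS) and for NCS against untreated cells (right, wild-type and 3KR). Points are edgeR estimates, bars are ± 1 standard error, and filled points passed an FDR of 0.05. At left, 7 untreated and 4 NCS-treated values are filled. At right, 4 wild-type values and 1 3KR value, that of Tap1, are filled.

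Of the immunoproteasome subunits, Psmb8 differed between genotypes and Psmb10 was not called. Psmb8, which takes the place of Psmb5, had 108, 119 and 108 normalized counts in untreated wild-type MEFs and 128, 157 and 134 after NCS. In 3KR MEFs it had 189, 223 and 227 without treatment and 216, 184 and 218 after NCS. All 6 3KR samples were above all 6 wild-type samples. The difference was 1.91-fold without treatment (log2 fold change 0.93, standard error 0.12, edgeR FDR = 7.88e-07) and 1.47-fold after NCS (0.56, standard error 0.12, edgeR FDR = 4.35e-04). The NCS change of Psmb8 was 0.33 in wild-type (edgeR FDR = 0.0599) and -0.04 in 3KR MEFs (edgeR FDR = 0.808).

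Psmb10, the counterpart of Psmb7, had 539, 538 and 524 normalized counts in untreated wild-type MEFs and 610, 612 and 545 with NCS. In the 3KR cells it had 532, 684 and 558 without treatment and 604, 597 and 567 after NCS. The genotypes overlapped in both treatments. Untreated 3KR replicate 2 was the highest sample, and the untreated difference of 0.14 had a 95% interval of -0.01 to 0.29. Without untreated 3KR replicate 1 it was 0.21 (edgeR FDR = 0.0478). After NCS the difference was -0.00 (95% interval -0.15 to 0.15).

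Of the constitutive subunits, 1 of 3 was called, lower in untreated 3KR MEFs, where 23.6% of all tested genes were called lower. Psmb5 had a log2 fold change of -0.05 in untreated 3KR against wild-type MEFs (edgeR FDR = 0.424), Psmb6 one of -0.07 (edgeR FDR = 0.281), and Psmb7 fell by 0.11 (edgeR FDR = 0.0497). Per kilobase of merged exons, Psmb8 was 0.968% ± 0.056 of the sum of Psmb8 and Psmb5 in untreated wild-type MEFs and 1.90% ± 0.20 in untreated 3KR MEFs (SD, n = 3 each). After NCS it was 1.17% ± 0.10 and 1.75% ± 0.20, respectively (SD, n = 3 each). The 3KR samples did not overlap the wild-type samples in either treatment. Two-sided exact permutation tests gave p = 0.10 for both, the smallest that 3 samples against 3 allow, or 0.20 adjusted over 8 such tests. Psmb10 was 17.1% ± 0.70 of the sum of Psmb10 and Psmb7 in untreated wild-type MEFs and 19.7% ± 2.4 in untreated 3KR MEFs (SD, n = 3 each; exact permutation p = 0.20, adjusted 0.32). After NCS the Psmb10 share was 17.6% ± 0.14 in wild-type and 18.7% ± 0.19 in 3KR MEFs (SD, n = 3 each). These samples did not overlap either (exact permutation p = 0.10, adjusted 0.20). The shares depend on the lengths used: with principal transcripts, Psmb8 made up 1.99% and 3.86% of its pair in untreated wild-type and 3KR MEFs. Psmb10 then made up 8.35% and 9.80% of its own.

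Nlrc5 was the scarcest member, at 19 to 59 counted reads per sample. The coactivator had 28.2, 19.3 and 20.7 normalized counts in untreated wild-type MEFs and 58.4, 55.1 and 53.6 in untreated 3KR MEFs. After NCS it had 39.0, 22.1 and 55.7 in wild-type and 39.5, 37.3 and 28.9 in 3KR MEFs. The untreated 3KR samples lay above the untreated wild-type and the treated 3KR samples, while the treated wild-type samples spread over nearly the whole range. 3KR was 2.41-fold higher without treatment (log2 fold change 1.27, standard error 0.28, edgeR FDR = 6.18e-04). After NCS the difference was -0.13, with a 95% interval of -0.68 to 0.41. The response to NCS was 0.74 in wild-type MEFs (edgeR FDR = 0.0644) and -0.66 in 3KR MEFs (edgeR FDR = 0.0641). The wild-type value passed without NCS-treated wild-type replicate 2 (1.04, FDR = 0.00827), with no filter on low counts (0.74, FDR = 0.0373) and in the fit blocked by replicate number (0.73, FDR = 0.0421). The 3KR value passed with no filter (-0.66, FDR = 0.0349), in the blocked fit (-0.66, FDR = 0.0349) and with only the 6 3KR samples in the fit (-0.66, FDR = 0.0197).

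After NCS, 4 of the 9 members were higher in 3KR than in wild-type MEFs (H2-K1, H2-D1, Tap2 and Psmb8) and 0 were lower. Their median was 0.09, against 0.00 for all tested genes, of which 22.9% were called higher and 23.6% lower. The groups did not overlap for 5 members with 3KR higher, where 27% of all genes did so. B2m did not overlap with 3KR lower, a direction for which the share of all genes was not computed. In wild-type MEFs, NCS raised 4 of the 9 members (Tap1, H2-D1, B2m and Tapbp) and lowered 0, with a median of 0.14 against 0.01 for all tested genes. The background was 14.3% called higher and 12.4% lower, and 18.6% of genes had groups that did not overlap with NCS higher, as 6 of 9 members did. In 3KR MEFs, NCS raised 1 member, Tap1, and lowered 0. There, 15.8% of genes were called higher and 15% lower, and 24% did not overlap with NCS higher, as 2 members did. The share of members called for NCS in 3KR MEFs is thus near that of all genes. There, 1 member, Nlrc5, did not overlap with NCS lower, and the share of all genes for that direction was not computed.

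All 9 members had a lower estimate for the response to NCS in 3KR than in wild-type MEFs, with a median difference of -0.14 on the log2 scale against 0.00 for all tested genes. This was not particular to the members among the lists described below. The median was -0.15 for nonclassical and class I-like heavy chains and -0.44 for class II genes. For macrophage markers it was -0.27, and for fibroblast markers -0.10. It lay above 0 for other loading genes (0.03), constitutive subunits (0.02), other 20S genes (0.09), interferon receptors (0.01) and lymphocyte and dendritic markers (0.21). Of the members, only Nlrc5 was called (-1.40, standard error 0.40, edgeR FDR = 0.0485), where 1.87% of tested genes had a smaller and 1.86% a larger response in 3KR MEFs. Nlrc5 was not called without any 1 of 9 libraries: untreated wild-type replicate 2, NCS-treated wild-type replicates 1 and 3, and each of the 6 3KR samples. Its values were then -1.05 to -1.50, with an edgeR FDR of 0.0789 to 0.136. Tapbp (-0.18, FDR = 0.105) and H2-D1 (-0.13, FDR = 0.111) did not pass. Both were called in the edgeR fit blocked by replicate number (-0.18, FDR = 0.0176, and -0.13, FDR = 0.0211), which called 1379 genes in place of 572, and H2-D1 also by the DESeq2 Wald test (-0.14, FDR = 0.0374). Without untreated wild-type replicate 3, Tapbp (-0.22, FDR = 0.0172) and H2-D1 (-0.15, FDR = 0.0185) were called, and without NCS-treated wild-type replicate 3 they were too (-0.22, FDR = 0.0291, and -0.16, FDR = 0.0347). Without both of these libraries, Tapbp, H2-D1, Tap1 and B2m were called, at -0.25, -0.17, -0.39 and -0.11, and Nlrc5 was not (-0.99, FDR = 0.140). The response comparison and the untreated comparison share the untreated samples, and a low untreated wild-type value enters both.

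Levels of different genes were compared as RPKM, read counts scaled by the TMM-adjusted library total and the length of the merged exons. In untreated wild-type MEFs the order was B2m at 364 ± 7.1, H2-D1 at 79.1 ± 1.7, H2-K1 at 24.1 ± 1.2 and Tapbp at 16.4 ± 0.76 (SD, n = 3 each). Then came Psmb10 at 8.21 ± 0.12, Tap2 at 3.17 ± 0.14, Tap1 at 1.67 ± 0.21, Psmb8 at 0.865 ± 0.049 and Nlrc5 at 0.0702 ± 0.015 (SD, n = 3 each). No mean ± SD range touched that of its neighbour. NCS changed this order, as Tap1 rose to 4.85 ± 0.14 in wild-type MEFs (SD, n = 3) with Tap2 at 3.18 ± 0.18 (SD, n = 3). The annotated exons include retained introns, and over principal transcripts Tap1 (3.10 ± 0.39) and Tap2 (3.49 ± 0.15) had overlapping ranges in untreated wild-type MEFs (SD, n = 3 each).

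**Figure D3:**
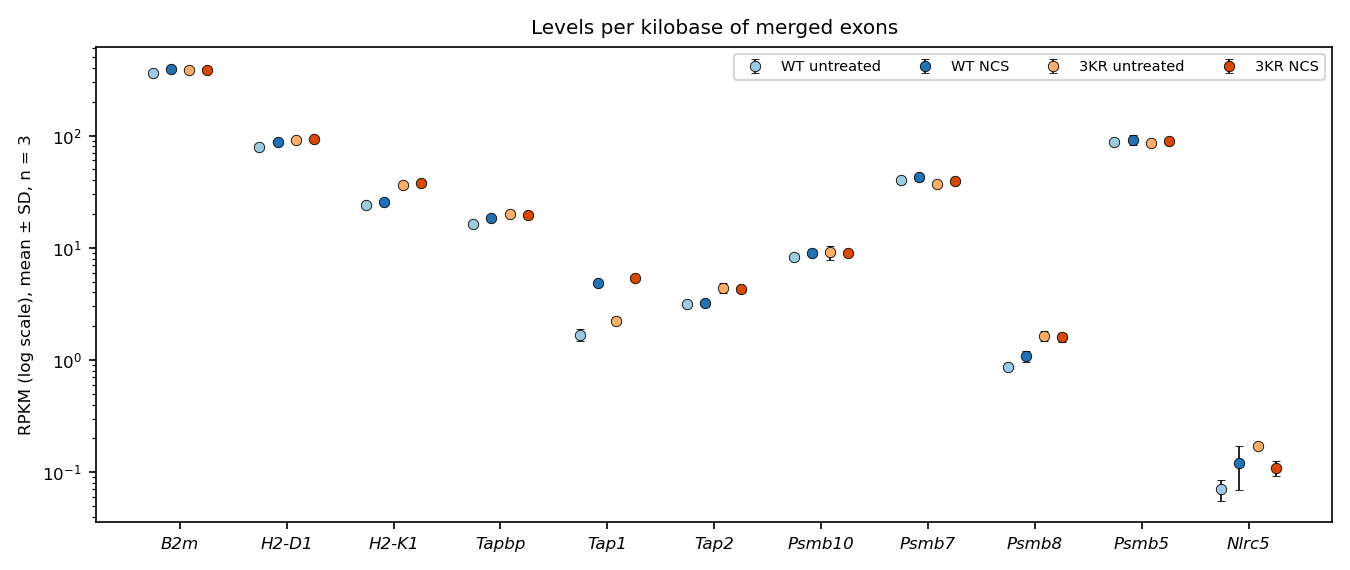
Mean RPKM ± SD (n = 3, log scale) per kilobase of merged exons for the 9 members and the constitutive subunits Psmb5 and Psmb7, by group. B2m leads at 364 in untreated wild-type MEFs, Nlrc5 is lowest at 0.0702, and Psmb5 and Psmb7 lie above their immunoproteasome counterparts in every group.

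The nonclassical class I and class I-like heavy chains also ran higher in 3KR MEFs. Of 16 tested, 11 were higher and 0 lower without treatment (median log2 fold change 0.48), and 9 were higher and 1 lower after NCS (median 0.34). Fcgrt, the neonatal Fc receptor, had 1659 ± 107 normalized counts in untreated wild-type and 2361 ± 56 in untreated 3KR MEFs (SD, n = 3 each; log2 fold change 0.50, edgeR FDR = 4.04e-09). Hfe, which binds the transferrin receptor, had 164 ± 5.7 and 336 ± 11 (SD, n = 3 each; 1.03, edgeR FDR = 2.10e-08). H2-Q4 differed by 0.67 (edgeR FDR = 8.06e-07), and Mr1, which presents microbial vitamin metabolites, by 0.47 (edgeR FDR = 5.91e-06). NCS raised 1 of the 16 in wild-type MEFs, H2-Q4 (0.25, edgeR FDR = 0.0443), and lowered 3 in 3KR MEFs, among them Fcgrt (-0.22, edgeR FDR = 9.10e-04). Among all tested genes, NCS raised 14.3% in wild-type and lowered 15% in 3KR MEFs. For this and the lists that follow, 22.1% of all tested genes were higher and 23.6% lower in untreated 3KR MEFs. After NCS the shares were 22.9% higher and 23.6% lower in 3KR than in wild-type MEFs.

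Without treatment, the general machinery around the members showed no common direction between genotypes. Of 10 other loading and trimming genes, 3 were higher and 3 lower in untreated 3KR MEFs (median -0.04). Erap1, which trims peptides in the endoplasmic reticulum, had 1053 ± 11 normalized counts in wild-type and 1409 ± 42 in 3KR cells (SD, n = 3 each, log2 fold change 0.41), while Ifi30, a lysosomal thiol reductase, fell by 0.26 and the chaperone Calr fell by 0.16. Of 18 other 20S proteasome and assembly genes, 3 were higher and 2 lower (median 0.02). After NCS, 6 of these 18 were higher in 3KR and 0 lower (median 0.09), where 22.9% of all tested genes were higher. The proteasome activators Psme1, Psme2, Psme3 and Psme4 were not called in any of the 4 comparisons, with untreated differences of 0.04, -0.00, -0.06 and -0.01. Psme1 and Psme2 encode the activator that interferon-gamma induces.

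Among 19 tested regulators of class I transcription, 9 were higher and 2 lower in untreated 3KR MEFs (median 0.15). Irf7, an interferon-induced transcription factor, had 58.6 ± 14 normalized counts in wild-type and 252 ± 7.9 in 3KR MEFs (SD, n = 3 each; log2 fold change 2.11), and Stat2 differed by 0.76. Irf1, an activator of Tap1 and Psmb9, was 0.40 higher in untreated 3KR MEFs, and after NCS it rose by 0.20 in wild-type cells (edgeR FDR = 0.0226) and 0.28 in 3KR cells (edgeR FDR = 0.00121). Rfx5, a subunit of the factor that binds the X box of these promoters, was 0.24 higher (edgeR FDR = 0.0475), with overlapping samples. Of the other subunits of that factor, Rfxank was 0.23 lower (edgeR FDR = 0.0305) and Rfxap was not called (-0.02). Ciita, the class II counterpart of Nlrc5, stayed at 3.1 to 19.4 normalized counts and was not called in any of the 5 comparisons. NCS raised Nfyb, which binds CCAAT, by 0.41 in wild-type and 0.34 in 3KR MEFs.

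Of the interferon genes listed, Ifnb1, Ifng, Ifna4, Ifnl2 and Ifnl3 had 0 counts in all 12 samples, which allows up to 0.0663 to 0.0904 CPM by sample, a limit that covers counting error only. Ifnk had 0 counts in 11 samples and 1 read in the other. Of 9 tested interferon receptor, kinase and feedback genes, 4 were higher and 1 lower in untreated 3KR MEFs. Socs3, a feedback inhibitor of cytokine signalling, was 0.65 higher, Jak2 was 0.42 higher, and Ifngr2 fell by 0.61. Of 10 ligands by which stressed cells engage NK and T cells, 2 were higher and 3 lower in untreated 3KR MEFs. After NCS, 3 were higher and 4 lower, where 22.9% of all tested genes were higher and 23.6% lower. NCS raised 3 in each genotype, where it raised 14.3% of all tested genes in wild-type and 15.8% in 3KR MEFs. The adhesion molecule Icam1 rose by 1.10 in wild-type and 0.96 in 3KR MEFs, the costimulatory ligand Cd80 by 0.96 and 1.58, and Pvr by 0.46 and 0.61. The Cd80 responses differed between genotypes (0.61, edgeR FDR = 3.65e-04). In untreated 3KR MEFs Cd80 (-1.73) and Pvr (-0.52) were among the 3 lower, and Icam1 (0.30) and Cd86 (1.43) were the 2 higher.

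**Figure D4:**
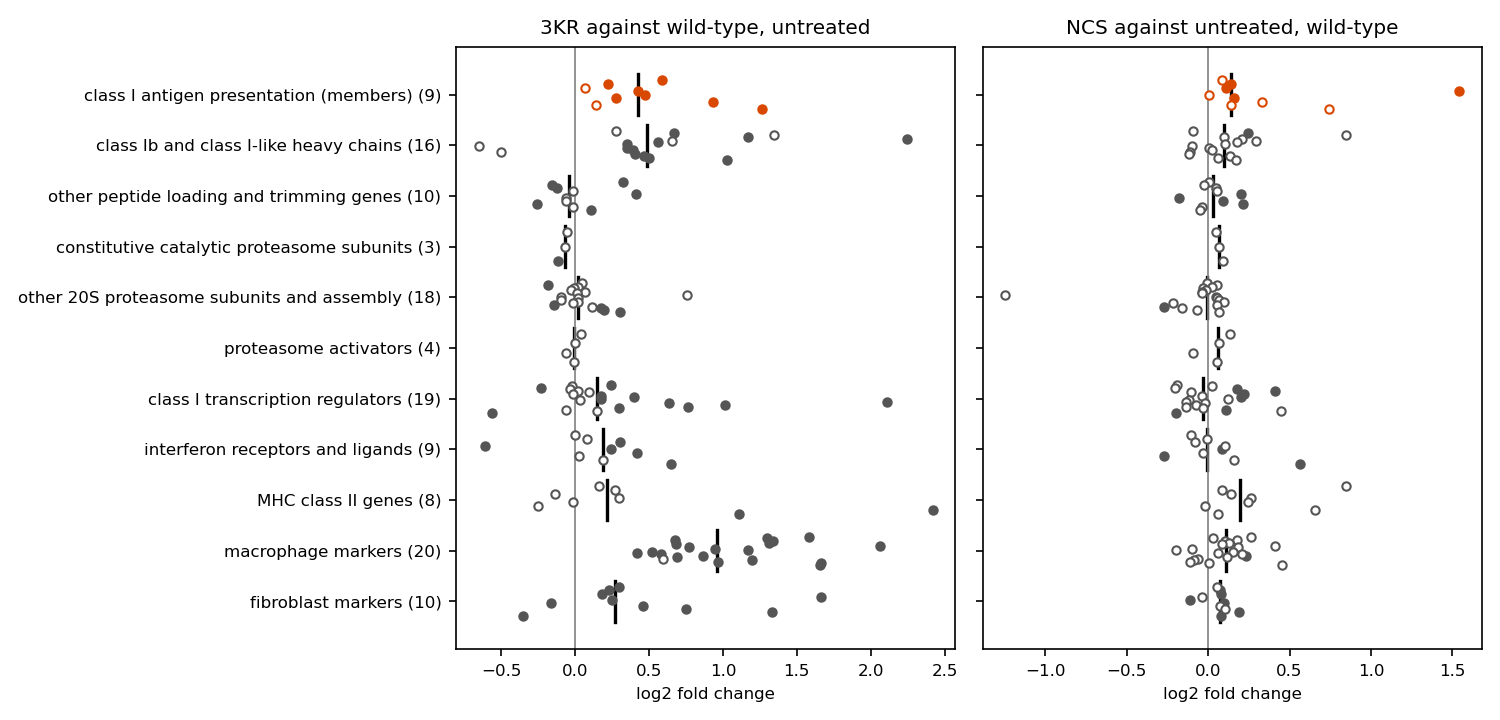
Log2 fold changes (x axes) of the tested genes of the members' list and 10 other lists (rows, with the number tested), for untreated 3KR against wild-type MEFs (left) and NCS against untreated wild-type MEFs (right). Each point is a gene, filled where the edgeR FDR was under 0.05, and vertical bars mark medians. At left the members (median 0.43), the class Ib genes (0.48) and the macrophage markers (0.96) lie to the right of 0, while the constitutive proteasome lists lie around it.

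Markers of another cell type moved with the genotype. Of 20 macrophage markers, which as a class express class I genes, 19 were higher and 0 lower in untreated 3KR MEFs (median log2 fold change 0.96), and 16 were higher and 0 lower after NCS (median 0.84). Their summed normalized counts were 6176 to 7020 and 6675 to 7515 in untreated and treated wild-type MEFs, and 12185 to 12370 and 10922 to 11291 in the 3KR groups. None of the 20 was at 0 in any sample. Csf1r, the receptor that defines the lineage, had 468 ± 34 normalized counts in untreated wild-type and 1157 ± 37 in untreated 3KR MEFs (SD, n = 3 each), and Cd14 had 201 ± 13 and 501 ± 9.3 (SD, n = 3 each). NCS raised 1 of the 20 in wild-type MEFs and lowered 3 in 3KR MEFs, with medians of 0.11 and -0.15. Among all tested genes, NCS raised 14.3% in wild-type and lowered 15% in 3KR MEFs, so these counts do not exceed the background. The part of macrophage RNA in the members' differences was not tested, and in bulk RNA more cells of a type and more RNA per cell cannot be told apart.

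Of 8 tested class II genes, 2 were higher in untreated 3KR MEFs and 0 lower. Cd74, the invariant chain, had 6.1 to 18.6 normalized counts in untreated wild-type and 64.5 to 77.0 in untreated 3KR MEFs, while the beta chain H2-Ab1 had 5.0 to 13.9 over all 12 samples. T cell genes were absent or near 0, with Cd3e and Cd8a at 0 counts in all 12 samples, as the class II chain gene H2-Eb2 was. Of 12 lymphocyte and dendritic cell markers, 3 were tested, with 0 higher and 1 lower in untreated 3KR MEFs. The lower one was Zbtb46 (-0.88, edgeR FDR = 2.99e-08), at 192 to 548 counted reads per sample. Xcr1 (30 to 63 reads) and Flt3 (9 to 22 reads) were measured but not called. Of 7 tested endothelial markers, 1 was higher and 2 lower. The fibroblast label held, with 10 of 10 fibroblast markers measured in every sample and a summed count of 2174330 to 2409490 normalized reads. Of these 10, 8 were higher and 2 lower in untreated 3KR MEFs (median 0.27). Pdgfra had 4768 ± 138 normalized counts in wild-type and 15185 ± 21 in 3KR MEFs (SD, n = 3 each), while Vim fell by 0.16.

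Across the 12 samples, the members tracked their common mean to different degrees. Pearson's r between a member's log2 CPM and the mean of the standardised members was 0.982 for H2-D1, 0.956 for Tapbp, 0.912 for Psmb8 and 0.87 for H2-K1. It was 0.78 for Tap2, 0.67 for B2m, 0.647 for Nlrc5, 0.61 for Tap1 and 0.584 for Psmb10. Each member is part of that mean, and samples share group and sequencing depth, so these values are descriptions. Among 11750 other genes with a mean of at least 1 on the log2 CPM scale, the closest to the mean were Rex1bd (r = 0.979), Csgalnact1 (0.977), Vcan (0.977), Pitpnc1 (0.976) and Rbms3 (0.970). In Vcan, which encodes the matrix proteoglycan versican, the untreated wild-type samples held 15657 to 17176 normalized counts and all others 20278 to 22948.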

How the data were processed

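mRNA-seq of 12 MEF samples was used, 3 in each of 4 groups taken from the sample titles. The authors deposited raw read counts per Ensembl gene, 1 file per sample, neither normalized nor filtered. The submitters' processing notes name TopHat, HTSeq, DESeq and the build mm9, and the study's methods call differential expression with DESeq2. Versions and the strand setting of the counting are not given in the sources used here, although the library kit was stranded, so antisense partners cannot be kept apart. Symbols and GRCm38 positions came from GENCODE M21, which holds 32919 of the identifiers and lacks 5072.

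Low counts were removed by filterByExpr, and edgeR 4.0.16 (R 4.3.3) fitted its quasi-likelihood model after TMM scaling, with all 12 samples and 1 coefficient per group. This was 1 fit for 5 contrasts, with two-sided p-values adjusted by the Benjamini-Hochberg method over 15327 genes called at 0.05. For levels, counts were divided by DESeq2 1.42.0 size factors (normalized counts), and the precision of low counts is set by their number. Intervals cover 95%. Shares were compared by exact permutation tests (SciPy 1.17.1). Log2 CPM had a prior count of 2.

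The members and the 13 other gene lists were chosen with earlier results of these data known. All members may be named. From each other list, the 3 genes with the lowest p between untreated genotypes and the 2 with the lowest p for NCS in wild-type MEFs may be named, with the subunit counterparts, Psme1, Psme2, Irf1, Ciita, Rfx5, the 5 genes most like the members, E2f1, Xist and Ddx3y. Genes at 0 counts, Ifnk and single markers that define a cell type (Ifnb1, Ifng, Ifna4, Ifnl2, Ifnl3, Cd3e, Cd8a, H2-Eb2) were named after their values were seen. So were Rfxank and Rfxap.

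Same-numbered samples were checked for pairing by correlating how each departed from its group mean. In wild-type MEFs the correlation was 0.141, 0.136 and 0.325 for numbers 1, 2 and 3. Untreated replicate 1 with treated replicate 2 gave 0.127, and untreated 2 with treated 1 gave 0.133. Numbers 1 and 2 were thus hardly told apart, while number 3 correlated at -0.217 to -0.197 with the others. For the same numbers in 3KR MEFs the correlations were -0.0091, 0.0064 and -0.091. Alternatives were the DESeq2 Wald test and size factors, other filters, only the samples compared, the replicate block, each sample left out, and other scaling and lengths. Tested on simulated data for untreated 3KR against wild-type MEFs, with 15132 genes, the edgeR step recovered 88.7% of genes changed by 0.5 on the log2 scale and 100% of those changed by 1, and 8 of its 200 calls were of unchanged genes. Comparisons of protein sequences were not run, and 1 gene that the rule allows is not reported here.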

Additional observations from a re-analysis of the deposited data

Results flagged for a closer look

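The response of Nlrc5 to NCS differed between the genotypes by a test of the difference itself. The log2 difference, 3KR minus wild-type, was -1.40 (standard error 0.40, edgeR FDR = 0.0485). In wild-type MEFs 2 of 3 treated samples were above all untreated samples (39.0 and 55.7 against 19.3 to 28.2 normalized counts), and in 3KR MEFs all 3 treated samples were below all untreated ones (28.9 to 39.5 against 53.6 to 58.4). Neither response was called on its own, at an edgeR FDR of 0.0644 in wild-type and 0.0641 in 3KR MEFs. The gene had at most 59 counted reads in a sample. Without NCS-treated wild-type replicate 3, the highest treated wild-type sample, the difference was -1.05 (edgeR FDR = 0.136), and without both wild-type libraries numbered 3 it was -0.99 (edgeR FDR = 0.140). The difference lost its call in 10 of 17 alternatives, among them leaving out any 1 of 9 libraries (-1.05 to -1.50, edgeR FDR 0.0789 to 0.136). What sets the level of Nlrc5 in these cells was not tested.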

How the results depend on the processing

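Of 630 member log2 fold changes under alternative settings, 578 stayed on the same side of the threshold, 17 lost the call, 35 gained one and 0 changed the sign of a called value. Values that were not called could change sign, as Nlrc5 after NCS did (-0.43 to 0.22). The members called in untreated 3KR against wild-type MEFs were 7 or 8 under the other tools, filters and sample sets. For NCS in 3KR MEFs the count of 1 rose to 2 with no filter, 3 with only the samples compared and 2 with the replicate block. In wild-type MEFs only number 3 correlated clearly more with its own number than with the others, and in 3KR MEFs no number did. With the block, H2-K1 and Nlrc5 were also called for NCS in wild-type MEFs, Tap1 after NCS (0.15, FDR = 0.0375), and Nlrc5 for NCS in 3KR MEFs (-0.66, FDR = 0.0349). For the difference in response the block gave 3 members in place of 1, adding H2-D1 (-0.13, FDR = 0.0211) and Tapbp (-0.18, FDR = 0.0176), and 1379 genes in place of 572. It changed no other call of a member. Without both wild-type libraries numbered 3 these counts were 4 and 1842, and leaving out 1 sample at a time gave 0 to 4 members and 345 to 1159 genes, highest without untreated wild-type replicate 3. DESeq2 gave no adjusted p for Nlrc5 in that comparison. With principal transcripts, the Psmb8 share differences were 1.87 (untreated), 1.17 (after NCS) and 0.41 (NCS in wild-type MEFs) percentage points in place of 0.928, 0.582 and 0.202, and that of Psmb10 after NCS was 0.631 in place of 1.15, which follows from the lengths. Scaling by library totals moved mean normalized counts by more than their SD for H2-D1 in untreated 3KR MEFs (9325), B2m in treated wild-type MEFs (12663, or 12956 with TMM) and Psmb10 in untreated wild-type MEFs (542). Depth limits Nlrc5 most. Sex, genotype and the founder's background cannot be told apart in these samples, and the macrophage markers move with the genotype.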
